A study of Mus musculus with 22 samples.

Results

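The retinoid X receptor (RXR) was mapped by chromatin immunoprecipitation and sequencing (ChIP-seq) in MC3T3-E1 cells that had received no hormone, once as undifferentiated pre-osteoblasts and once after 15 days of osteoblast differentiation. The comparison takes the 2 lists of RXR sites from vehicle-treated cells, with 7834 sites in undifferentiated and 4815 sites in differentiated cells on chromosomes 1 to 19 and X. Together these are 12649 of the 360354 regions in the 22 lists analysed. A site was counted as shared when its region overlapped a region of the other list by at least 1 bp, which gave sites of both states, undifferentiated-only sites and differentiated-only sites.

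MC3T3-E1 is a pre-osteoblastic line from mouse calvaria, used at passages 5 to 12, so all values come from 1 cell line. Undifferentiated cells were grown in complete medium alone. Differentiated cells were kept for 15 days in the same medium with glycerol-2-phosphate and ascorbic acid, the additions with which such cells lay down mineral. Both received the solvent ethanol for 3 h before cross-linking, and RXR was precipitated with the same antibody (sc-774). The other lists used here come from the same 2 states: RXR and the vitamin D receptor (VDR) with 100 nM calcitriol (1,25(OH)2D3, the hormonal form of vitamin D) for 3 h, VDR with vehicle, and RUNX2, C/EBPβ and 5 histone marks with calcitriol. Marks and partner factors beside a vehicle RXR site therefore describe hormone-treated cells of the named state. Differentiated cultures were in addition homogenized and spun through sucrose to free them of matrix, so state and preparation cannot be told apart. Each group is represented by 1 list with no read counts. Sequencing depth is unknown, there is no replicate check on any difference, and the exact 95% intervals cover the counting of sites only.

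RXR is a nuclear receptor that binds DNA as one partner of a pair, with the vitamin D receptor, the retinoic acid receptors (RARs), the liver X receptors (LXRs), the peroxisome proliferator-activated receptors (PPARs) or the thyroid hormone receptors. Each pair favours 2 copies of a 6-base half-site at its own spacing, and the spacing names the element: DR1 for PPAR and RXR pairs, DR2 and DR5 for RAR, DR3 for VDR, and DR4 for LXR and thyroid hormone receptor. Some of these pairs sit on DNA before any ligand arrives, so RXR sites in vehicle can mark loci of several hormone pathways.

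The sequences that follow show such elements at sites of each class that lie near genes of bone or lipid biology. They are 201 bp regions from the mouse genome mm9 (NCBIM37), on its plus strand, with the repeat in capitals. For each class they are the pair of sites with a repeat without mismatch and with no overlap of the 201 bp region with an exon that lay nearest to a start of a gene on the lists described further on. The differentiated-only pair held the DR3 at -0.74 kb of Spp1 (chr5:104863297-104863497), the gene of the mineral-binding matrix protein osteopontin, and a DR4 in an intron of the Wnt co-receptor gene Lrp5 (chr19:3667147-3667347), 19.3 kb from its start. Negative distances lie upstream of a start.
Spp1 -0.74 kb, differentiated only: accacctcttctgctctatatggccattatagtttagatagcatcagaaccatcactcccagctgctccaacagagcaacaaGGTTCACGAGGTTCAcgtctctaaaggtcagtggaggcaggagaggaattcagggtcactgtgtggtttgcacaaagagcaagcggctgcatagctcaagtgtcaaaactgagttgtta
Lrp5 intron, differentiated only: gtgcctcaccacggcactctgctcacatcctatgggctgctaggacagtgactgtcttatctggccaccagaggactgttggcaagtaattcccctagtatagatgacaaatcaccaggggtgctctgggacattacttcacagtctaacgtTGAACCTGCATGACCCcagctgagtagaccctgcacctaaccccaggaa

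The sites of both states were a second DR3 of Spp1, at -1.97 kb (chr5:104862067-104862267), and a DR5 in an intron of Smad3 (chr9:63564051-63564251), which encodes a signal transducer of TGF-beta.
Spp1 -1.97 kb, both states: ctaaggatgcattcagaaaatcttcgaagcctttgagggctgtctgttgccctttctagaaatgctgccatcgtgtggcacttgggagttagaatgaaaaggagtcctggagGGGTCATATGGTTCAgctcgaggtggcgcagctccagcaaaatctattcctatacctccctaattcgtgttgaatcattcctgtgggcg
Smad3 intron, both states: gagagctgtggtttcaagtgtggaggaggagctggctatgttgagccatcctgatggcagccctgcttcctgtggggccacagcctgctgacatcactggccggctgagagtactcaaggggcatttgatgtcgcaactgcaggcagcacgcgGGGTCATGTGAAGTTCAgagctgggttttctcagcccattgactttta

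The undifferentiated-only sites were a DR4 between genes, 17.2 kb downstream of the start of Sfrp2 (chr3:83587872-83588072), which encodes a secreted Wnt modulator, and a DR1 38.4 kb from the start of Scd2 and next to that of Scd4, both genes of fatty acid desaturases (chr19:44406482-44406682).
Sfrp2 downstream, undifferentiated only: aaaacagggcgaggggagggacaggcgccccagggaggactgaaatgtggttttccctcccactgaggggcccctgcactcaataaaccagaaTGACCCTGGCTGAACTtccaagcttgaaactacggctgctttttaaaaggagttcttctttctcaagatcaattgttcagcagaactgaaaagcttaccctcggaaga
Scd2 downstream, undifferentiated only: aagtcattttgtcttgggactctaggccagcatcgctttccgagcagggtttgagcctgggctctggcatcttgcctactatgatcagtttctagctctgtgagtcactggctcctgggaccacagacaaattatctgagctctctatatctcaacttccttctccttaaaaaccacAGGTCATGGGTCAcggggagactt

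Without hormone RXR occupied fewer listed sites in the differentiated state, and most of those it occupied were already listed in the undifferentiated state. Of the 7834 undifferentiated sites, 3269 (41.7%, 95% interval 40.6 to 42.8) were also called in differentiated cells and 4565 were not. Of the 4815 differentiated sites, 3257 (67.6%, 66.3 to 69.0) were also called in undifferentiated cells and 1558 were not. The undifferentiated list was 1.63 times as long. Shared sites were called at nearly the same place: their centres lay a median of 30 bp apart, and 71.6% lay within 50 bp of each other.

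Sites of a single state were mostly separate loci and not shifted calls of one peak. The nearest differentiated site lay a median of 54301 bp from an undifferentiated-only site, and 318 of 4565 (6.97%) had one within 1000 bp. For differentiated-only sites the nearest undifferentiated site lay a median of 31125 bp away, and 143 of 1558 (9.18%) had one within 1000 bp. They were measured against the longer list, with 7834 sites beside 4815, so the 2 distances depend on list length. In both states sites came in groups: 40.4% of undifferentiated and 31.0% of differentiated sites had another site of the same list within 10 kb. These shares depend on list length as well. By chromosome, the ratio of undifferentiated to differentiated sites ran from 1.31 on chromosome 5 to 2.12 on chromosome 9. The undifferentiated list was the longer one on all 20 chromosomes.

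The RXR lists made with calcitriol show which of these sites were called in each state under another treatment. Of the sites of both states, 2600 of 3269 (79.5%) were called with calcitriol in both states as well, and 96 (2.94%) in neither. Of the undifferentiated-only sites, 2527 (55.4%, 53.9 to 56.8) were called again with calcitriol in undifferentiated cells, and 1526 (33.4%, 32.1 to 34.8) were called with calcitriol in differentiated cells. A further 1633 (35.8%) were called with calcitriol in neither state. Of the differentiated-only sites, 1232 of 1558 (79.1%, 77.0 to 81.1) were called with calcitriol in differentiated cells and 354 (22.7%) in undifferentiated cells. The 79.1% and the 55.4% were measured against calcitriol lists of unlike length. In differentiated cells that list was longer than the vehicle list (8126 beside 4815 sites), and in undifferentiated cells it was shorter (7591 beside 7834).

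The order of the list lengths turned with treatment. With calcitriol the differentiated RXR list held 8126 sites and the undifferentiated one 7591, against 4815 and 7834 with vehicle. Sites that kept to 1 state under both treatments numbered 1406 in undifferentiated and 925 in differentiated cells. Those 925 are 59.4% of the differentiated-only sites, while the 1406 are 30.8% of the undifferentiated-only sites. Both shares depend on these list lengths.

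**Figure D1:**
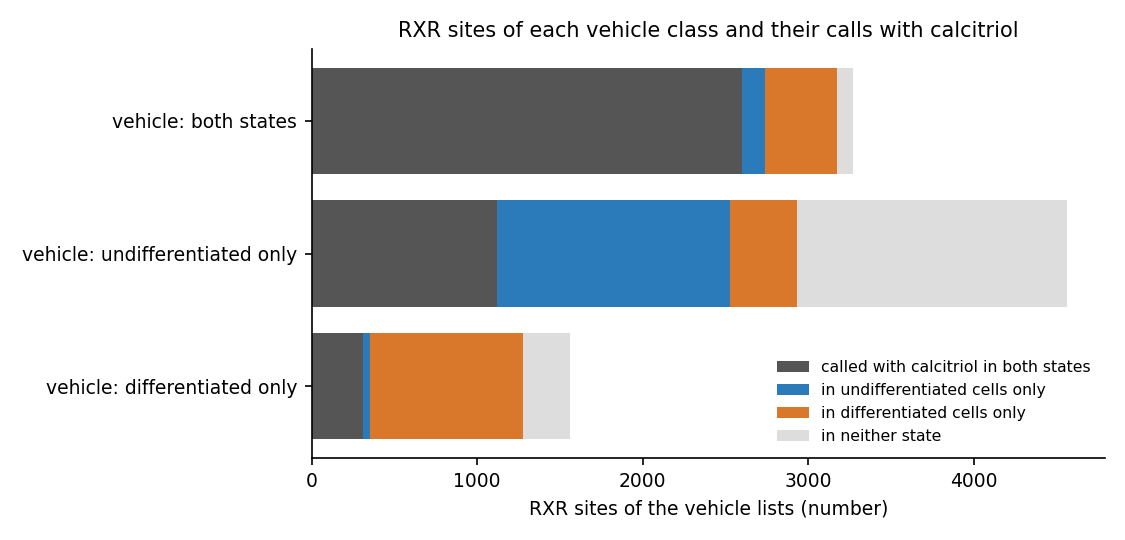
RXR sites of each vehicle class (bars, number of sites on the x axis), split by whether the calcitriol RXR lists also held them. The both-state bar is mostly sites called with calcitriol in both states (2600), the undifferentiated-only bar has its largest section in neither state (1633), and the differentiated-only bar in differentiated cells only (925).

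Other factors of the same cells give a scale for this overlap. Of the undifferentiated sites of each list, 64.7% were also called in differentiated cells for C/EBPβ, 61.6% for RXR with calcitriol, 24.0% for VDR with vehicle and 11.3% for VDR with calcitriol. RXR with vehicle, at 41.7%, lay between these and near RUNX2 with calcitriol, of which 5183 of 12012 sites were called again. These shares depend on list lengths, which for VDR fell from 937 to 274 with vehicle and from 7000 to 871 with calcitriol.

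Chromatin at RXR vehicle sites looked like that of regulatory elements in both states. H3K4me1, a mark of enhancers and promoter flanks, covered 12.8% of the genome in differentiated cells and 95.2% to 99.3% of RXR sites, whatever the class and state. H4K5Ac, a mark of active chromatin, overlapped 93.0% to 98.9%. Sites called by RXR in 1 state only were therefore marked in both states: 94.3% of differentiated-only sites already carried H3K4me1 in undifferentiated cells and kept it. In a check of the cells themselves, H3K4me3, the mark of active promoters, lay at starts of Runx2, Sp7, Col1a1, Col1a2 and Spp1 in both states, but not at Alpl, Bglap or Ibsp. It lay at none of the starts of 5 adipocyte, 4 muscle or 4 blood markers, while of 4 cartilage markers it lay at Sox9 and Col2a1 in undifferentiated and at Sox9 in differentiated cells. H3K9Ac lay at Sox9, Col2a1 and the adipocyte marker Cebpa in both states, and at Alpl in differentiated cells only.

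H3K9Ac, an acetyl mark of active promoters and enhancers, differed most between the classes. It was found at 72.4% (70.9 to 74.0) of both-state sites, 64.9% (63.5 to 66.3) of undifferentiated-only sites and 45.7% (43.2 to 48.2) of differentiated-only sites in undifferentiated cells. In differentiated cells the shares were 89.4%, 80.5% and 63.7%, higher in each class. The mark's own list also grew, from 2.54% to 3.36% of the genome. The mark itself was seldom missing from the second state. Of the 2962 undifferentiated-only sites with H3K9Ac in undifferentiated cells, 97.8% still had it after differentiation. Differentiated-only sites gained H3K9Ac at 301 of 1558 (19.3%), both-state sites at 566 of 3269 (17.3%) and undifferentiated-only sites at 779 of 4565 (17.1%). These shares also count sites that already had the mark. Among sites without it in undifferentiated cells, 301 differentiated-only sites gained it and 545 did not. At both-state sites 566 gained it and 335 did not, and at undifferentiated-only sites 779 did and 824 did not. On this base a gain was the least frequent at differentiated-only sites.

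H3K4me3 and H3K36me3, the latter a mark of transcribed gene bodies, were the less frequent marks. H3K4me3 lay at 27.7% of both-state, 24.0% of undifferentiated-only and 18.2% of differentiated-only sites in undifferentiated cells, and at 21.4%, 18.5% and 14.6% in differentiated cells. H3K36me3 hardly told the classes apart, with 27.1% to 29.0% in undifferentiated and 19.3% to 20.5% in differentiated cells. The fall of H3K4me3 went with a list that covered 1.94% of the genome in undifferentiated and 0.841% in differentiated cells. The number of its regions rose from 6983 to 8994, so the differentiated list had more but narrower regions. What the change of list coverage adds to these shares was not tested.

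**Figure D2:**
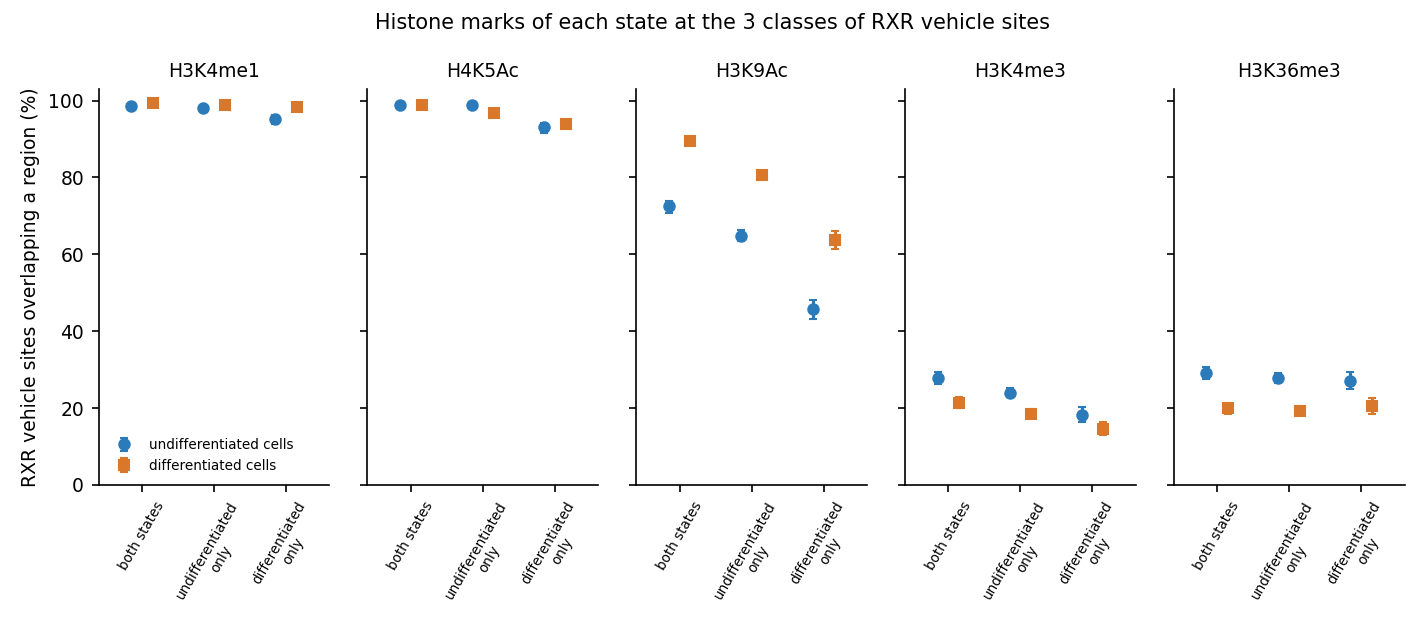
Share of RXR vehicle sites (y axis, percent) that overlap a region of each histone mark in undifferentiated (circles) and differentiated cells (squares), for the 3 classes of sites, with exact 95% intervals. H3K4me1 and H4K5Ac stay above 90% throughout, and H3K9Ac falls from 72.4% at both-state sites to 45.7% at differentiated-only sites in undifferentiated cells.

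RUNX2, the master transcription factor of osteoblasts, accompanied RXR at sites of its own state. RUNX2 was found at 2316 of 3269 both-state sites in undifferentiated cells (70.8%, 69.3 to 72.4) and at 1891 in differentiated cells (57.8%, 56.1 to 59.6). At undifferentiated-only sites its share was 61.1% (59.7 to 62.5) in undifferentiated and 29.7% (28.4 to 31.0) in differentiated cells. At differentiated-only sites the order was the opposite, with 28.2% (25.9 to 30.5) and 40.9% (38.5 to 43.4). RUNX2 called in undifferentiated cells was called again in differentiated cells at 74.0% of the both-state sites and at 43.9% of the undifferentiated-only sites. The RUNX2 list itself shortened from 12012 to 7919 sites.

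Read from the side of RUNX2, undifferentiated RXR sites with RUNX2 in both states were also differentiated RXR sites in 58.3% of 2938 cases (56.5 to 60.1). Where RUNX2 was called in undifferentiated cells only, 27.8% of 2168 sites were (25.9 to 29.7). Sites with RUNX2 in differentiated cells only gave 57.8% of 308, and those with RUNX2 in neither state 32.0% of 2420. In the differentiated list, sites where RUNX2 was called in differentiated cells only were shared with the undifferentiated list in 33.7% of 528 cases, against 85.6% of 2006 with RUNX2 in both states. RUNX2 in undifferentiated cells only gave 79.6% of 740 there, and RUNX2 in neither state 50.1% of 1541. Sharing was thus more frequent in both lists where RUNX2 was called in the other state. Undifferentiated RXR sites without any RUNX2 call were thus closer in this share to those with RUNX2 in undifferentiated cells only than to those with RUNX2 in both states.

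C/EBPβ, a basic leucine zipper factor of osteoblast and adipocyte differentiation, followed the same order with smaller differences. Its share at undifferentiated-only sites was 34.5% in undifferentiated and 22.1% in differentiated cells. At differentiated-only sites it was 28.7% and 39.1%, and at both-state sites 46.0% and 40.0%. The C/EBPβ lists themselves were of like length, with 17950 and 16557 sites.

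VDR, the partner that calcitriol loads onto RXR, was more frequent at sites that RXR held in both states than at those of 1 state. With calcitriol in undifferentiated cells VDR was called at 59.6% (57.9 to 61.3) of both-state sites, 33.0% of undifferentiated-only sites and 20.9% of differentiated-only sites. In differentiated cells the shares were 6.88%, 1.99% and 4.17%, from the much shorter VDR list. Without hormone VDR was rare at RXR sites, with 8.50%, 3.46% and 1.99% in undifferentiated and 1.56%, 1.01% and 0.642% in differentiated cells. Most RXR sites of vehicle-treated cells were thus sites without a VDR call of the same cells.

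VDR, C/EBPβ and RUNX2 together were more frequent at shared sites. In undifferentiated cells this combination was called at 30.8% of both-state sites and 13.2% of undifferentiated-only sites. At differentiated-only sites 50.2% had none of the 3 factors in undifferentiated cells, and 39.5% had none in differentiated cells. Of the undifferentiated sites with VDR under calcitriol, 56.4% (54.7 to 58.1) were shared with the differentiated list, against 30.1% of those without.

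**Figure D3:**
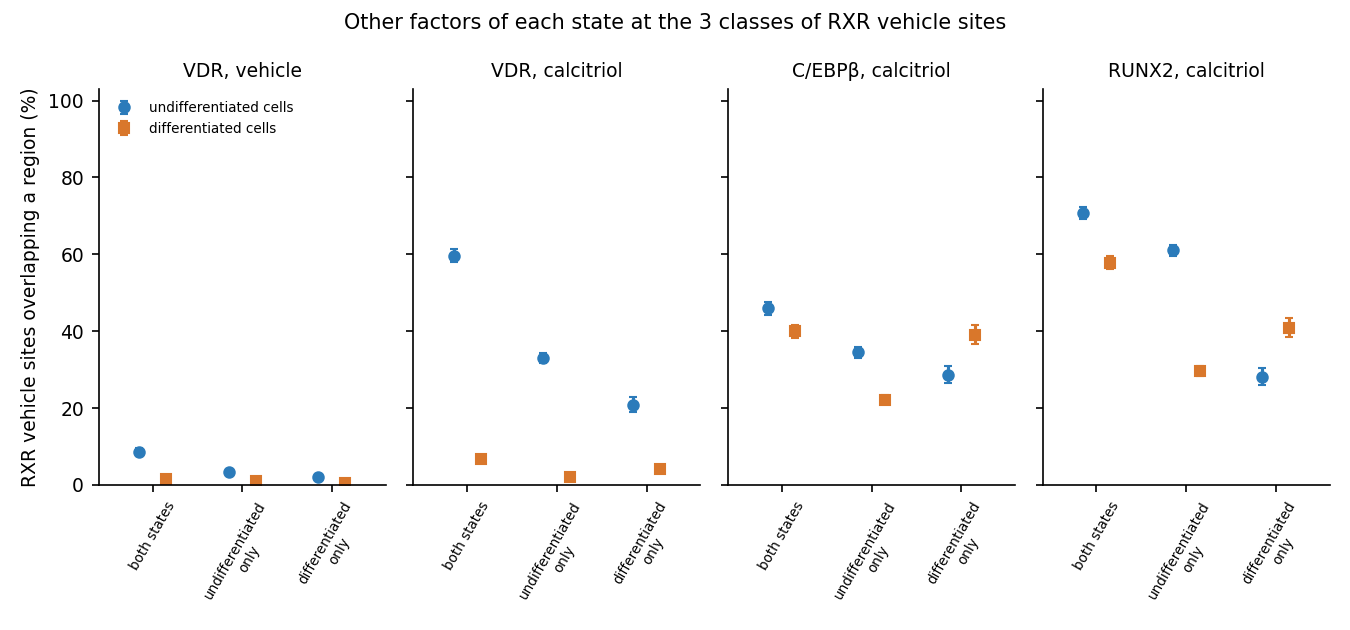
Share of RXR vehicle sites (y axis, percent) with VDR under vehicle and with VDR, C/EBPβ and RUNX2 under calcitriol, in undifferentiated (circles) and differentiated cells (squares), for the 3 classes of sites, with exact 95% intervals. RUNX2 and C/EBPβ are more frequent in the state in which RXR was called, and VDR is the highest at both-state sites of undifferentiated cells (59.6%).

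Among the repeats, DR4 differed most between the classes. It is the element of LXR and thyroid hormone receptor pairs. Windows of 200 bp around site centres were searched on both strands for the 6-base half-site AGGTCA, with G also allowed at base 1 and T at base 3, repeated with spacers of 0 to 5 bp, with 1 mismatch allowed in the whole element. DR4 was found at 162 of 3269 both-state sites (4.96%, 4.24 to 5.76), 95 of 4565 undifferentiated-only sites (2.08%, 1.69 to 2.54) and 113 of 1558 differentiated-only sites (7.25%, 6.01 to 8.65). In flanking windows 2 kb to either side the shares were 1.45%, 1.49% and 1.25%. The same windows around all annotated protein-coding starts gave 1.06%. DR4 matches were thus 5.79 times as frequent as in the flanks at differentiated-only sites and 1.40 times at undifferentiated-only sites.

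Of the undifferentiated sites with a DR4, 63.0% (56.8 to 68.9) were shared with the differentiated list, against 41.7% of all undifferentiated sites. DR4 went with RXR sites that lacked RUNX2: at differentiated-only sites it was found in 9.57% (7.74 to 11.7) without and 3.92% (2.55 to 5.73) with RUNX2 in differentiated cells. At both-state sites the shares in undifferentiated cells were 9.02% and 3.28%. Differentiated-only sites with a calcitriol call in the same state held DR4 in 8.52% of 1232 cases, and those without such a call in 2.45% of 326. The same split by the undifferentiated calcitriol list gave 5.00% and 4.74% at both-state sites and 2.26% and 1.86% at undifferentiated-only sites.

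A DR4 without mismatch was found at 12 differentiated-only sites (0.770%), 12 undifferentiated-only sites (0.263%) and 18 both-state sites (0.551%). The elements of 11 of the 12 differentiated-only sites are printed because DR4 is the repeat that differed most between the classes, a choice made after its values were seen. Half-sites are in capitals and the 4-base spacer is in lower case, read 5′ to 3′ on the strand that holds the match, and each is named by the gene with the nearest start.
Cnksr3: AGGTCActtgAGGTCA
Tle6: AGGTCAgccaGGGTCA
Tns3: AGGTCAacctGGGTCA
Sec14l1: GGTTCAtctgGGTTCA
Slc38a6: AGGTCAggatGGTTCA
S1pr3: AGGTCActctGGGTCA
2010111I01Rik: AGTTCAagccAGGTCA
Tprg: AGTTCAgcagAGGTCA
Lrp5: GGGTCAtgcaGGTTCA
Aldh2: AGTTCAgttcGGGTCA
Lsp1: GGGTCAggccAGGTCA

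Of these 11 sites, 3 lay within 1 kb of a start: those at Tle6 (-0.025 kb), at Aldh2 (0.015 kb), which encodes a mitochondrial aldehyde dehydrogenase, and at Lsp1 (0.128 kb). RXR with calcitriol was called in differentiated cells at 10 of the 11, and RUNX2 in differentiated cells at 2. The shares over all differentiated-only sites were 79.1% and 40.95%. H3K9Ac lay over 7 of the 11 in undifferentiated and 10 in differentiated cells, beside 45.7% and 63.7% of all differentiated-only sites. Of 17 both-state sites with such a DR4, all 17 had the RXR call and 15 had H3K9Ac in differentiated cells. These small counts were not tested against the class shares. Among the both-state sites with such a DR4 were sites at -3.44 kb of Cbfb, the gene of the RUNX partner subunit, and 25.4 kb from the start of Wnt10a. The undifferentiated-only ones included sites at -0.842 kb of the smooth muscle actin gene Acta2 and -42.4 kb of Dio3, the gene of a thyroid hormone deiodinase.

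The other repeats were rarer or differed less. DR5 was found at 3.88% of both-state, 2.34% of undifferentiated-only and 3.79% of differentiated-only sites (flanks 1.26% to 1.35%, start windows 0.918%). DR3 was found at 1.99%, 1.45% and 2.63% (flanks 1.03% to 1.41%, start windows 1.09%). It was concentrated at VDR sites: differentiated-only sites with VDR under calcitriol in differentiated cells held it in 15 of 65 cases (23.1%, 13.5 to 35.2), and those without VDR in 1.74%. DR1 shares (2.88%, 2.56% and 3.21%) lay above their flanks (2.19% to 2.34%, start windows 1.5%), at 1.315, 1.14 and 1.37 times the flank share. DR2 shares (2.26%, 2.17% and 2.95%) lay below their flanks (2.72% to 3.31%, start windows 1.21%). For DR1 and for DR2 the order between classes changed when no mismatch was allowed. At least 1 of the 6 direct repeats was found at 15.9% of both-state, 11.2% of undifferentiated-only and 19.3% of differentiated-only sites, so most sites of each class held none in these windows.

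RUNX, TEAD, AP-1 and C/EBP elements and the GC box were each more frequent than any repeat in all 3 classes. They are shorter than the repeats, and all but the GC box were also more frequent than any repeat in the flanks. Their shares therefore do not rank them above the repeats as features of RXR sites. The RUNX element (TGTGGT or TGCGGT) was found at 40.7%, 41.8% and 36.3% of both-state, undifferentiated-only and differentiated-only sites, beside 16.7% to 17.4% of flanks and 15.5% of start windows. The TEAD element (GGAATG) was the most frequent at undifferentiated-only sites (24.4%, 23.1 to 25.6) and the least at differentiated-only sites (17.5%, 15.7 to 19.5), with 10.3% to 10.7% of flanks and 8.18% of start windows. AP-1 (TGANTCA) and C/EBP (TTGCNNAA) elements had the reverse order, AP-1 with 12.6% at undifferentiated-only and 17.4% at differentiated-only sites, and C/EBP with 8.65% and 13.5%. Their shares in start windows were 4.01% and 5.56%, and flanks held 5.98% to 6.61% for AP-1 and 7.25% to 8.12% for C/EBP. The GC box (GGGCGG), found in 34.4% of start windows and 2.92% to 3.62% of flanks, was at 16.2%, 12.7% and 12.9% of the sites. The ETS element (CCGGAAG) was rarer, at 4.86%, 3.92% and 2.95% of the sites, beside 0.738% to 0.975% of flanks and 8.26% of start windows.

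**Figure D4:**
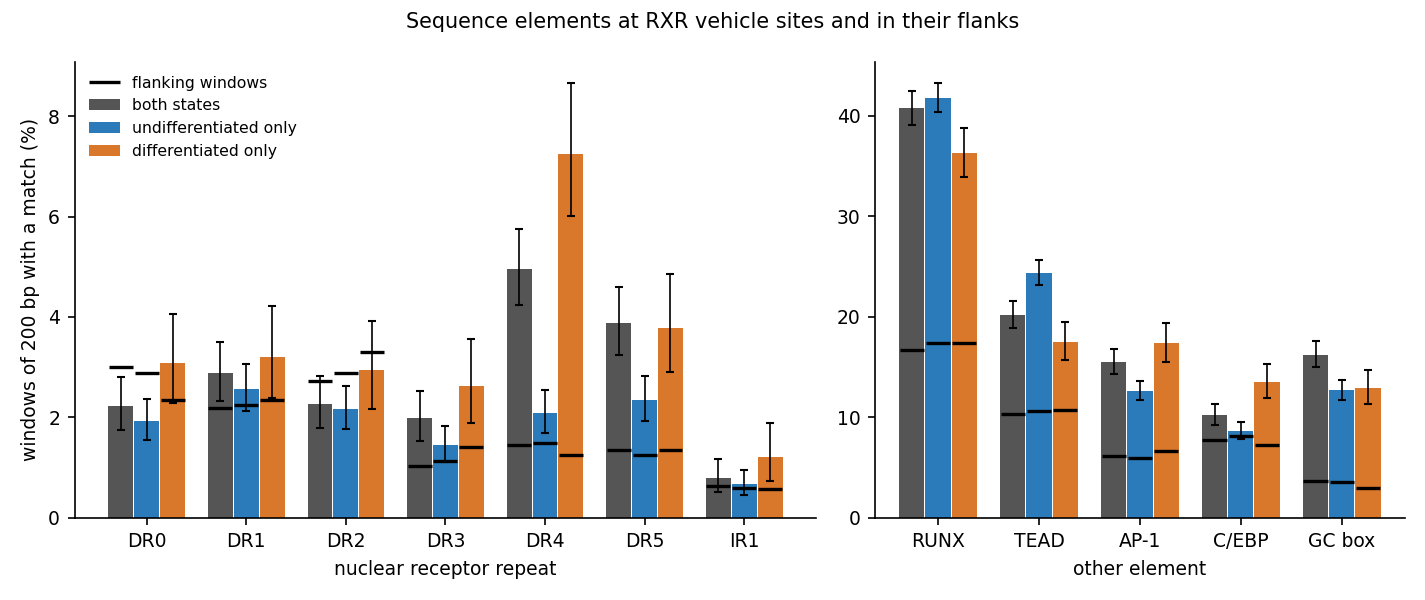
Share of 200 bp windows (y axis, percent) that hold each nuclear receptor repeat (left) or another element (right) at RXR vehicle sites of the 3 classes, with exact 95% intervals; black lines give the flanking windows. DR4 reaches 7.25% at differentiated-only sites against 1.25% in their flanks, and the GC box is at 16.2% of both-state, 12.7% of undifferentiated-only and 12.9% of differentiated-only sites.

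Both-state sites lay nearest to gene starts. Within 1 kb of an annotated start of a protein-coding gene lay 21.8% (20.4 to 23.3) of both-state, 18.8% of undifferentiated-only and 15.4% (13.7 to 17.3) of differentiated-only sites. Introns held 30.2%, 34.3% and 35.1%, exons 1.20% to 1.48%, and the space between genes 45.7% to 48.0%. The median distance to the nearest start was 17547, 19522 and 24510.5 bp.

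Of 22208 protein-coding genes, 10600 (47.7%) had at least 1 RXR vehicle site within 100 kb of a start. A both-state site was found near 27.5%, an undifferentiated-only site near 33.2% and a differentiated-only site near 14.2% of genes. Undifferentiated-only sites and no other lay near 14.1% of genes, differentiated-only sites and no other near 3.48%, and sites of all 3 classes near 5.51%. Counts of the gene lists below are read against these shares, with no test of enrichment. All genes had a median of 0 sites.

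Genes of RXR itself and of its partners were often near its sites. Of 19 such genes 15 had a site (78.95%, beside 47.7% of all genes), with a median of 3 per gene. A differentiated-only site lay near 6 of them (31.6%, beside 14.2% of all genes and 35.7% of 14 housekeeping genes). Rxra, which encodes RXR alpha, had 5 both-state, 5 undifferentiated-only and 2 differentiated-only sites, and Rxrb had 4, 5 and 1. Rara, which encodes the retinoic acid receptor alpha, had 8 both-state and 6 undifferentiated-only sites but no differentiated-only site, and 2 of the both-state sites lay within 1 kb of a start, at 0.024 and 0.594 kb. The vitamin D receptor gene Vdr had 2 both-state sites, both in introns, and 4 undifferentiated-only sites. The LXR alpha gene Nr1h3 had a both-state site at -0.08 kb.

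Rarb, for the retinoic acid receptor beta, was the only one of the 19 genes with a differentiated-only site within 1 kb of a start. That site (chr14:17407955-17408155) lay at -0.069 kb of an annotated start and held a DR5 without mismatch on the minus strand, at chr14:17408027-17408043. An undifferentiated-only site at 0.416 kb of Rxrb also held such a DR5, at chr17:34173785-34173801. The regions of both sites overlap exons. Both elements are shown, with the spacer in lower case and read on the minus strand, as the 2 repeats without mismatch near starts of receptor genes of this list, as seen after the search.
Rarb, differentiated only: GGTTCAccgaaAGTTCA
Rxrb, undifferentiated only: AGGTCActcaaAGGTCA

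At the Rarb start RXR was called with calcitriol in differentiated but not in undifferentiated cells, and neither VDR, C/EBPβ nor RUNX2 was called there in any list. H3K4me1 and H4K5Ac regions covered it in differentiated cells only, whereas an H3K9Ac region covered it in undifferentiated cells only. No H3K4me3 region overlapped it in either state. A second differentiated-only site of Rarb lay in an intron at -27.9 kb, with C/EBPβ in both states and RUNX2 in differentiated cells.

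Genes of the lipid pathways that RXR serves with LXR and PPAR had sites of both states in most cases. Of 13 LXR and cholesterol genes 11 had a site, and 10 of the 13 had a both-state site (76.9%, beside 27.5% of all genes). Of 16 PPAR and fatty acid genes 12 had a site, and 11 of the 16 had one of both states (68.75%). Scd2, a stearoyl-CoA desaturase gene, had 8 both-state, 6 undifferentiated-only and 4 differentiated-only sites, among the most of any listed gene. Abca1, the cholesterol exporter and a known LXR target, had 3, 1 and 3, with a both-state site at -0.093 kb. DR4 elements with 1 mismatch lay in a differentiated-only site 47.9 kb from that start, inside the gene, and in a both-state site at -58.4 kb. Angptl4 and Pdk4, PPAR targets of lipid and fuel use, each had a both-state site within 1 kb of a start (-0.31 and -0.223 kb). Of 15 genes of retinoid handling 7 had a site, a share of 46.7%, near that of all genes.

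Bone matrix and mineralization genes all had RXR near them: 21 of 21 had a site within 100 kb (beside 47.7% of all genes), with a median of 3 per gene. The list had 5 genes with undifferentiated-only sites alone (23.8%, beside 14.1% of all genes and 21.4% of 14 housekeeping genes). It had 0 with differentiated-only sites alone, beside 3.48% of all genes, a share too low to be read in a list of 21. A differentiated-only site lay near 7 of its genes (33.3%, beside 14.2% of all genes and 35.7% of 14 housekeeping genes). Col1a1, for the major chain of bone collagen, had 10 both-state and 8 undifferentiated-only sites and no differentiated-only site, and Col1a2 had 6, 7 and 1. The 10 both-state sites of Col1a1 ran from -54.9 to 45.5 kb, including 1 at 0.09 kb. All 10 carried H3K9Ac in both states, beside 72.1% of all both-state sites. These 10 sites all lay within 100 kb of starts of Sgca and Hils1 too, so they were counted for those genes as well. Alpl, the alkaline phosphatase that frees phosphate for mineral, had 3 both-state and 4 undifferentiated-only sites. Of those 4, 3 lay within 6 kb of a start, all with RUNX2 in undifferentiated cells, beside 61.1% of all undifferentiated-only sites. Bglap, for osteocalcin, had 1 undifferentiated-only site, 53.0 kb away, without H3K4me1 or H3K9Ac in either state.

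Spp1 had 6 both-state, 2 undifferentiated-only and 2 differentiated-only sites. The differentiated-only site at -0.74 kb and the both-state site at -1.97 kb, whose sequences are printed above, each held a DR3 without mismatch. Both carried VDR with calcitriol, RXR with calcitriol, C/EBPβ and RUNX2 in both states, and VDR with vehicle in undifferentiated cells. The promoter-near site was thus missing from a single RXR list, the one of undifferentiated cells without hormone. H3K9Ac covered both sites in both states, and H3K4me3 in undifferentiated cells only. The neighbouring bone genes on chromosome 5 share some of these sites. Mepe had 5 both-state sites, 4 of them among those of Spp1, and Dmp1 had 2, 1 of them at -0.936 kb.

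Of 15 transcription factor genes of the osteoblast lineage 12 had a site, and 3 of the 15 (20%, beside 14.1% of all genes) had undifferentiated-only sites and no other. Their gene and site pairs numbered 24 of both states, 34 undifferentiated-only and 7 differentiated-only, against 10440, 13423 and 4138 over all genes. Runx2 had 1 both-state site, in an intron, and 2 undifferentiated-only sites, 1 of them at -0.018 kb with RUNX2 and C/EBPβ in both states and no RXR call with calcitriol in either. Dlx3 and Fosl1 each had 6 undifferentiated-only sites, beside 1 and 3 of both states.

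Among signalling genes, Smad6, an inhibitor of BMP signalling, had 7 undifferentiated-only sites and no other, with 3 of them within 1 kb of a start. H3K9Ac covered all 7 in both states, beside 63.4% of all undifferentiated-only sites. Lrp5 was the listed gene with the most differentiated-only sites, 5, beside 3 of both states and 2 of undifferentiated cells. Of those 5, 4 lay in its introns, and all 5 carried H3K9Ac in both states, beside 44.4% of all differentiated-only sites. The DR4 site printed above was called with VDR and with RXR under calcitriol in both states. Of 21 Wnt genes 17 had a site (80.95%) and of 23 BMP and TGF-beta genes 14 had one (60.9%), beside 47.7% of all genes.

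Vitamin D response genes had a site in 15 of 17 cases, 7 of them with undifferentiated-only sites alone (41.2%, beside 14.1% of all genes). The vitamin D list shares genes with the bone matrix list. Cyp24a1, the enzyme that degrades calcitriol, had 2 undifferentiated-only sites, at -14.1 kb, within 1 kb of the start of another gene, and at 93.2 kb. Tnfsf11, which encodes the osteoclast cytokine RANKL, had 2 as well, at -75.4 and -22.6 kb, both called again with calcitriol in both states. Of 9 osteocyte genes 7 had a site, and 5 of the 9 had undifferentiated-only sites alone (55.6%, beside 14.1% of all genes). Cartilage genes also reached 44.4% (4 of 9), so a high share was not particular to the vitamin D and osteocyte lists. Among other lists, housekeeping genes gave 21.4%, adipocyte and blood genes 10% each and muscle genes 0%.

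Lists of other lineages and of general upkeep set the scale. Of 9 cartilage genes 7 had a site, of 10 adipocyte genes 6, of 10 blood genes 4, of 9 muscle genes 1 and of 14 housekeeping genes 9. The share over all genes was 47.7%. A differentiated-only site lay near 5 of the 14 housekeeping genes (35.7%) and near 20% of adipocyte genes. Cartilage and muscle genes gave 11.1% each, and blood genes 10%. The housekeeping share was thus above those of the bone matrix list (33.3%) and the list of RXR and partner genes (31.6%). Actb, a housekeeping gene, had 16 sites, behind only Col1a1 and Scd2 among listed genes, so a high count was not particular to bone genes.

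**Figure D5:**
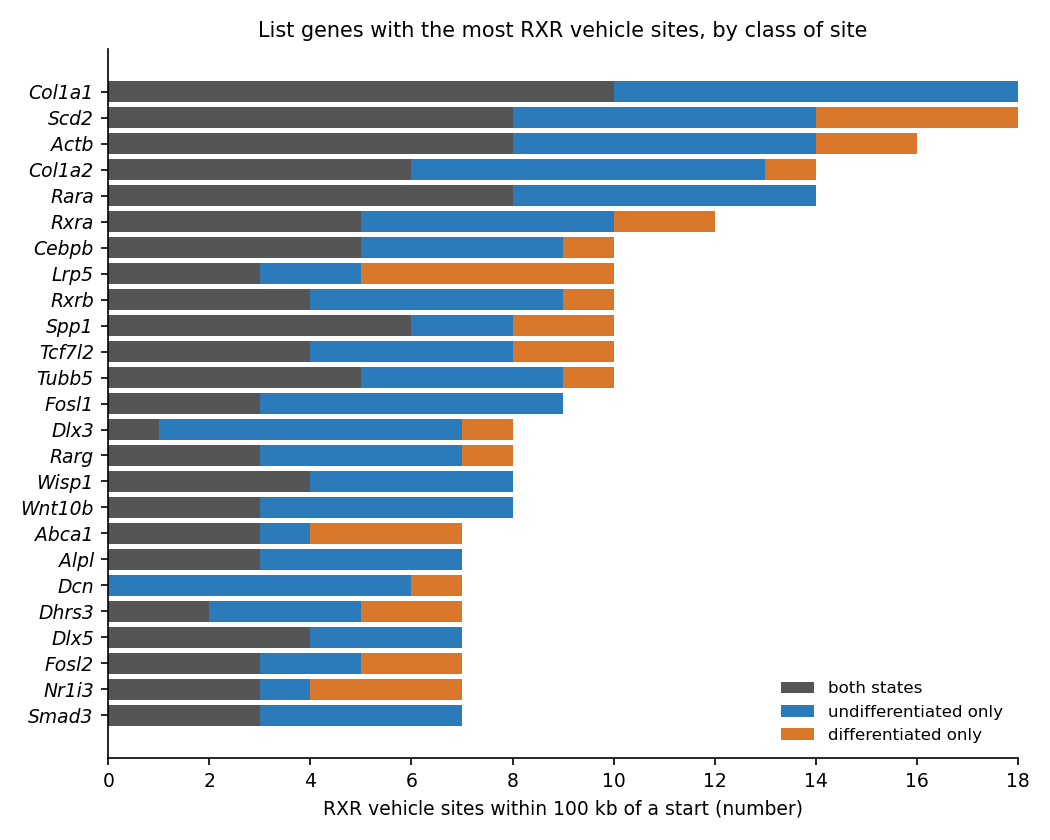
Number of RXR vehicle sites within 100 kb of a start (x axis) for the 25 listed genes with the most sites, by class (colours). Col1a1 and Scd2 have 18 each, Lrp5 has the most differentiated-only sites (5), and Dcn has 6 undifferentiated-only sites and none of both states.

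At starts themselves, 8.33% of all genes had an RXR vehicle site within 1 kb, with a both-state site at 3.48%, an undifferentiated-only site at 4.12%, a differentiated-only site at 1.18% and all 3 classes at 0.0180%. Undifferentiated-only promoter sites and no other were found at 3.77% and differentiated-only ones and no other at 1.00% of genes. Of the 210 listed genes, 15 had undifferentiated-only promoter sites and no other. Among them were the matrix genes Fn1, Lox, Postn and Col2a1, the regulators Runx2, Dlx5, Id3 and Nfkbiz, the signalling genes Smad6, Wnt10b and Wisp2, the lipid genes Insig1 and Pltp, and Gapdh. Differentiated-only promoter sites and no other were found at 4, among them Spp1, Rarb and Tgfbr1, the last a TGF-beta receptor gene with its site at -0.28 kb. The promoter site of Tgfbr1 was called with calcitriol in undifferentiated but not in differentiated cells, and RUNX2 was called there in both.

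Over all genes, the neighbours with the most sites of each class were often outside these lists. For both-state sites they included Top2a, a DNA topoisomerase gene next to Rara (11), Igfbp4, for a binding protein of insulin-like growth factors (10), Slc44a3 (10) and Bre (10). For undifferentiated-only sites they included Ddc, for the enzyme aromatic amino acid decarboxylase (14), Dhx8 (13), Dnm3 (11), Amotl2, for an angiomotin-like protein (10) and Rbpj, the DNA-binding effector of Notch signalling (10). For differentiated-only sites the highest numbers were 6, at Dut, B4galt5 and Tbc1d1, followed by 5 at Cyth1, Usp36, Socs5, a cytokine signalling suppressor gene, and Lrp5. B4galt5, Cyth1 and Usp36 had no undifferentiated-only site. The starts of Top2a and Igfbp4 lie within 100 kb of each other on chromosome 11, as do those of Cyth1 and Usp36. Their windows overlap, so the same sites can be counted for both genes of a pair.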

How the data were processed

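RXR, VDR, RUNX2, C/EBPβ and histone marks were mapped by ChIP-seq. The submitters' processing notes name Bowtie, HOMER and the build mm9 for what the authors did; no version or calling threshold is known here. The deposited lists have 6 columns, and the names of between 70.4% and 99.6% of regions count 2 merged peaks, so each list was read as an overlap of replicates. The score deposited by the authors was 0 in all factor lists, whose regions are 201 bp wide, and of unknown meaning in the histone lists, where 1 alternative used it to drop the 25% of regions with the lowest score. The sample labels give H4K5Ac where the protocol text names H3K5Ac.

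Sites were placed on NCBIM37 with GENCODE vM1 (genes merged by symbol and chromosome). Classes, marks, elements and neighbours were counted with Python 3.11.15, numpy 2.4.6, scipy 1.17.1 and pysam 0.24.0, and the counting was tested on simulated data. Both-state sites use undifferentiated coordinates. With 1 list per group, no test was made and no p-value is given. Mark and factor shares are overlaps of at least 1 bp.

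The classes, gene lists and alternatives were chosen with earlier results of these data known. Named genes are the 10 with the most sites per class (a selection of which is printed), the 25 of the 210 listed genes with the most sites, and listed genes with promoter sites of 1 state only; other listed genes, and the exact DR4 and Rarb elements, were named after their values were seen. Sequences were limited to sites within 100 kb of a listed gene, off chromosome 18 and outside exons; the limit of 100 kb was added after the values were seen. Results of some listed genes are not reported here.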

Additional observations from a re-analysis of the deposited data

How the results depend on the processing

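No paired analysis was possible because each group has 1 list and the labels number no replicates, so none could be left out. Counting the other state's calcitriol list as well moved undifferentiated-only sites from 4565 to 3039, and asking for both treatments in the own state and neither list of the other gave 1406 undifferentiated-only and 925 differentiated-only sites. With the calcitriol list counted, the promoter share of differentiated-only sites was 13.0%, their H3K9Ac 39.4% (undifferentiated cells) and 57.9% (differentiated), and their RUNX2 in undifferentiated cells 22.5%; undifferentiated-only sites had H3K9Ac at 61.5% and 76.5% and RUNX2 at 57.9% and 22.9%, both-state sites RUNX2 at 53.2% in differentiated cells, and 1941 genes had undifferentiated-only sites alone. Genes with any site, and with undifferentiated-only sites alone, numbered 4644 and 1861 within 20 kb, and 4349 and 1601 by nearest start, which gave 453 with differentiated-only sites alone. In what follows, values are for both-state, undifferentiated-only and differentiated-only sites. Promoter shares were 9.82%, 8.94% and 7.45% within 100 bp and 32.2%, 30.3% and 23.5% within 5 kb. DR4 shares were 0.551%, 0.263% and 0.770% without mismatch and 3.18%, 1.18% and 4.75% in 100 bp windows. H3K9Ac in undifferentiated cells was 65.8%, 57.9% and 37.4% over 1 kb from starts and 61.1%, 53.0% and 36.8% without the lowest 25% of regions; in differentiated cells 86.9%, 76.6% and 58.2%, and 82.3%, 69.1% and 59.3%. RUNX2 with centres within 500 bp was 74.0%, 65.6% and 31.9% in undifferentiated and 60.6%, 32.9% and 43.8% in differentiated cells. Over 1 kb from starts it was 76.6% and 64.7% at both-state and undifferentiated-only sites in undifferentiated cells, and 64.1% and 43.6% at both-state and differentiated-only sites in differentiated cells. The cause of these moves was not tested.

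The order of the classes was kept under every alternative run for promoter share, DR3, DR4, TEAD, AP-1 and C/EBP elements, H3K4me1, H4K5Ac, H3K9Ac, H3K4me3, RUNX2 and VDR with calcitriol. It turned in at least 1 pair of classes for DR1, DR2, DR5, the RUNX element, the GC box, H3K36me3 of undifferentiated cells, C/EBPβ of differentiated cells and VDR with vehicle of differentiated cells; over 1 kb from starts, the last fell from 1.56% to 0.0783% at both-state sites. Depth is unknown for every list, so a site missing from a list is not shown to be unbound.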
